A study of Homo sapiens with 4 samples.

Results

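Transcription-coupled repair begins when Pol II stalls at a lesion in the template strand. The genes described here encode factors that recognize the stalled enzyme, TFIIH subunits that follow, and 2 other Pol II associated factors (*XAB2* and *RECQL5*). The 10 genes were taken by name: *ERCC6*, *ERCC8*, *UVSSA*, *ELOF1*, *STK19*, *XAB2*, *RECQL5*, *ERCC2*, *ERCC3* and *GTF2H1*. Of these, 9 were rows of the table of 10147 expressed genes, and *ERCC6*, which encodes the CSB translocase, was not analysed here. The choice used no measured value.

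In this pathway the translocase CSB binds the upstream side of stalled Pol II and recruits CSA, the product of *ERCC8*, with its cullin ubiquitin ligase. UVSSA then joins, and the elongation factor ELOF1 and STK19 help to place the ligase and the repair factors on Pol II, so that Pol II is ubiquitinated and TFIIH is loaded. TFIIH opens the DNA around the lesion, the damaged strand is cut out and the gap is filled. Loss of *ERCC8* or *ERCC6* causes Cockayne syndrome and loss of *UVSSA* causes UV-sensitive syndrome, while TFIIH also serves transcription initiation at Pol II promoters.

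RNA synthesis was measured by TT-seq, in which a pulse of 4-thiouridine (4sU, 500 µM for 5 min) marks new RNA before it is isolated and sequenced. The cells were K562, a human chronic myelogenous leukemia line, edited so that endogenous IWS1, a Pol II elongation factor, carries an N-terminal degradation tag (dTAG), and control and treated cells both carried the tag. The control group received the solvent DMSO for 1 h (2 libraries) and the dIWS1 group received 500 nM of the degrader ligand dTAG7 for 1 h (2 libraries). The protocols name no DNA damaging treatment, so the values describe synthesis of the repair factors' own RNA, not repair. Effects of the ligand itself cannot be told apart from loss of IWS1, since untagged cells with dTAG7 were not analysed here.

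The table holds 1 mean per gene over 4 library columns, and whole reads per column were recovered from these means for 10118 genes, all 9 repair genes included. They gave 3 distinct columns: 2 dIWS1 columns and 1 control column that enters the means with the weight of 2. The means cannot tell 1 control library entered 2 times from the sum of both with exactly the same scaling, and the column was counted as 1 sample. The columns held 28645884 reads in genes for control, 19873539 for dIWS1 column 1 and 20099312 for dIWS1 column 2. Reads were scaled by spike-in size factors and are called normalized reads below. Fold changes are dIWS1 over control from limma voom, with p-values adjusted by the Benjamini-Hochberg procedure over all 10118 genes and 0.05 as the threshold. In the counts below, a gene that fell is one called lower at this threshold, and a gene not called can still lie below control. The p-values rest on the spread between the 2 dIWS1 columns, pooled over genes, and hold no spread between controls. The *IWS1* gene had a log2 fold change of -0.55, but since the ligand acts on the protein this checks nothing about its depletion. All 8 erythroid genes listed as K562 markers, among them *GATA1* and *TAL1*, were in the table, and none of 6 lymphoid, epithelial and liver markers was.

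Synthesis of 8 of the 9 repair genes was called lower in dIWS1 cells and none was called higher. Over all genes 64.4% were called lower and 0.109% higher by the same test, so the count of 8 stands against a background in which most genes fell. The median log2 fold change of the 9 genes was -0.56, beside -0.43 over all genes, whose quartiles were -0.60 and -0.26. All 9 genes were below 0 in both dIWS1 columns, and they spread from *UVSSA* at -1.19 to *ERCC3* at -0.29. In such bulk samples fewer labelled cells and less RNA per cell cannot be told apart.

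To see where the genes stood within this general fall, the fold changes were also tested relative to the median gene, that is, with the median of all genes set to 0. Both dIWS1 columns were moved by the same amount. The shift between their medians over all genes (-0.47 and -0.37) therefore stayed in the spread behind these tests. On this scale *UVSSA* and *RECQL5* were called lower and none of the 9 higher, while 4.78% of all genes were called lower and 2.99% higher. The median of the 9 genes on this scale was -0.13, and 6 of them lay below the median gene.

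**Figure D1:**
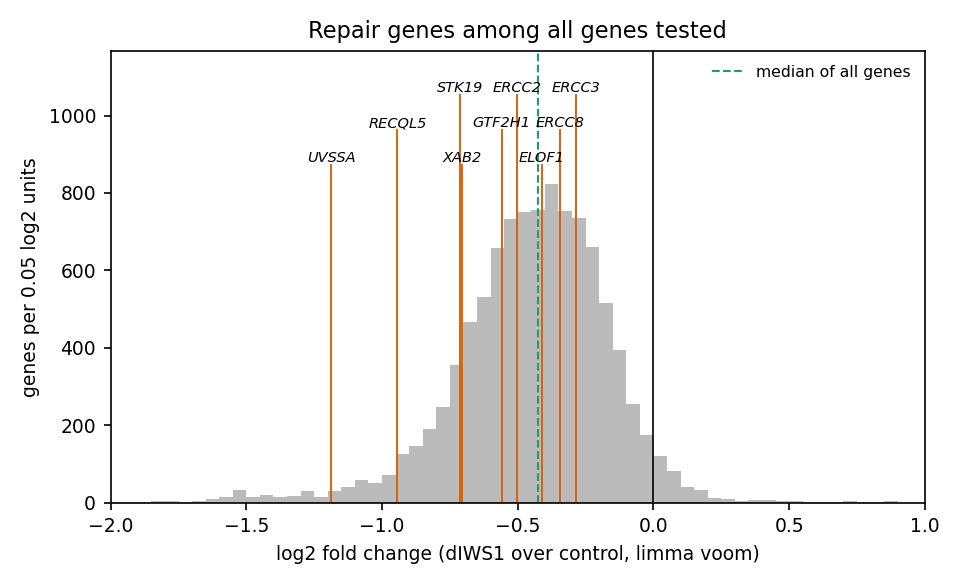
Number of genes (vertical axis) by log2 fold change, dIWS1 over control (horizontal axis, bins of 0.05), for the genes tested, with 44 genes outside the axis. Orange lines mark the 9 repair genes, the dashed line the median of all genes (-0.43) and the black line 0. *UVSSA* and *RECQL5* sit in the left tail, and the others lie within the bulk of the distribution.

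Among the 4 genes for recognition of stalled Pol II, *UVSSA* had the lowest fold change. *UVSSA* (chr4:1345691-1395989, plus strand, 14 exons, GRCh38, GENCODE release 44, as for the positions that follow) encodes the scaffold that brings TFIIH and the deubiquitinase USP7 to stalled Pol II. Its normalized reads were 1174 in control, 492 in dIWS1 column 1 and 539 in dIWS1 column 2. Both dIWS1 columns were far below control and close to each other. The log2 fold change was -1.19 (SE 0.13, 95% interval -1.45 to -0.92, adjusted p = 2.24e-16), or 56.1% less synthesis. Relative to the median gene *UVSSA* was at -0.76 (95% interval -1.02 to -0.50, adjusted p = 2.05e-06), and 2.33% of all genes had a fold change at or below its own. Non-coding genes on the same strand share 1495 and 983 bp with its span, and the part of their reads in its value was not tested.

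*STK19* (chr6:31971091-31982821, plus strand, 7 exons) encodes a factor that links Pol II, CSA and TFIIH in the repair complex. It had 335 normalized reads in control, 197 in dIWS1 column 1 and 211 in dIWS1 column 2, the fewest in control among the 9 genes. Its log2 fold change was -0.71 (SE 0.14, adjusted p = 5.62e-06), and relative to the median gene it was -0.29 (95% interval -0.57 to -0.01, adjusted p = 0.211), which did not pass. Entering the control column 2 times adds no sample, yet 1584 of all genes were then called lower on this scale, against 484. *STK19* passed in that setting (adjusted p = 0.03). The gene lies in a duplicated stretch of the major histocompatibility complex that also holds a near-identical partial copy. The end of its GENCODE span shares 765 bp with *C4A* on the same strand, but its RefSeq span ends before that stretch, at 31981446. Reads from the copy could have been counted for it or lost from it, so its value is uncertain.

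*ELOF1* (chr19:11551147-11559230, minus strand, 4 exons) encodes a small elongation factor that sits on Pol II beside the incoming DNA and that repair uses as an adaptor for the CSA ligase. Its normalized reads were 415 in control, 299 in dIWS1 column 1 and 326 in dIWS1 column 2, so both dIWS1 columns were below control. Synthesis fell by 0.41 on the log2 scale (SE 0.13, adjusted p = 0.00491), which placed *ELOF1* beside the median gene (0.01, 95% interval -0.25 to 0.28, adjusted p = 0.962).

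*ERCC8* (chr5:60866454-60945073, minus strand, 12 exons) is the longest of the 9 genes and encodes CSA, the subunit by which the ligase reads its substrates. Its span holds the pseudogene *GNL3LP1* on the same strand over 1643 bp. It had 2614 normalized reads in control, 2039 in dIWS1 column 1 and 2075 in dIWS1 column 2. These dIWS1 columns were the closest pair among the 9 genes, with an SD of 0.018 between their log2 ratios. That ranking includes a shift between the columns over all genes, whose medians were -0.47 and -0.37. Against these medians *ERCC8* was at 0.116 and 0.0389, further apart than *STK19* (-0.288 and -0.294). The fall of *ERCC8* was 21.3%, with a log2 fold change of -0.35 (SE 0.15, adjusted p = 0.0316), and relative to the median gene it was 0.08 (95% interval -0.21 to 0.37, adjusted p = 0.79). The call of *ERCC8* was the only 1 of the 8 lost when limma-trend took the place of voom (adjusted p = 0.0558 with a pseudocount of 0.5).

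Of the 3 TFIIH genes 2 were called lower, beside 64.4% of all genes. *GTF2H1* (chr11:18322295-18367045, plus strand, 15 exons) encodes p62, the TFIIH subunit that UVSSA contacts. It had 3614 normalized reads in control, 2289 in dIWS1 column 1 and 2629 in dIWS1 column 2, the most of the 9 genes in each column. Its log2 fold change was -0.56 (SE 0.15, adjusted p = 6.57e-04), and -0.13 relative to the median gene (95% interval -0.43 to 0.16, adjusted p = 0.635).

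*ERCC2* (chr19:45349837-45370918, minus strand, 23 exons) encodes XPD, the helicase that opens the DNA around the lesion. Its normalized reads were 511 in control, 345 in dIWS1 column 1 and 377 in dIWS1 column 2, again with control highest. The log2 fold change was -0.50 (SE 0.13, adjusted p = 4.6e-04). It stood at -0.08 when set against the median gene (95% interval -0.33 to 0.18, adjusted p = 0.768). *KLC3* shares 1684 bp with it on the other strand, and the counting kept strands apart.

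*ERCC3* (chr2:127257290-127294166, minus strand, 15 exons) encodes XPB, the TFIIH translocase that also opens promoters. It had 1677 normalized reads in control, 1340 in dIWS1 column 1 and 1410 in dIWS1 column 2, so both dIWS1 columns were below control here as well. It was the only 1 of the 9 genes that was not called, with a log2 fold change of -0.29 (SE 0.14, 95% interval -0.56 to -0.01, adjusted p = 0.063). Relative to the median gene it was at 0.14 (95% interval -0.14 to 0.41, adjusted p = 0.597). The intervals of all 3 TFIIH genes on that scale included 0, the median gene.

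Both genes for other Pol II associated factors were called lower, where 64.4% of all genes were. *RECQL5* (chr17:75626845-75667189, minus strand, 20 exons) encodes a RecQ helicase that binds Pol II directly and restrains its elongation. Its normalized reads were 1520 in control, 812 in dIWS1 column 1 and 770 in dIWS1 column 2. The dIWS1 columns were near each other and well below control. The log2 fold change was -0.94 (SE 0.14, 95% interval -1.21 to -0.67, adjusted p = 3.59e-10), or 48.0% less synthesis, and relative to the median gene it was -0.52 (95% interval -0.79 to -0.25, adjusted p = 0.00555). The small gene *SMIM5* shares 7971 bp with it on the other strand.

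*XAB2* (chr19:7619525-7629545, minus strand, 19 exons) encodes a partner of the repair protein XPA that also acts in splicing. It had 371 normalized reads in control, 250 in dIWS1 column 1 and 207 in dIWS1 column 2. This was the widest gap between dIWS1 columns among the 9 genes, with log2 ratios of -0.57 and -0.85 and an SD of 0.19. The 95% counting intervals of these ratios overlapped (-0.81 to -0.34 and -1.11 to -0.59). The log2 fold change was -0.70 (SE 0.14, adjusted p = 4.32e-06). Set against the median gene it was -0.28 (adjusted p = 0.216), so its call did not hold on that scale. That value turned on the column, at -0.098 without dIWS1 column 2 and -0.47 without dIWS1 column 1.

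**Figure D2:**
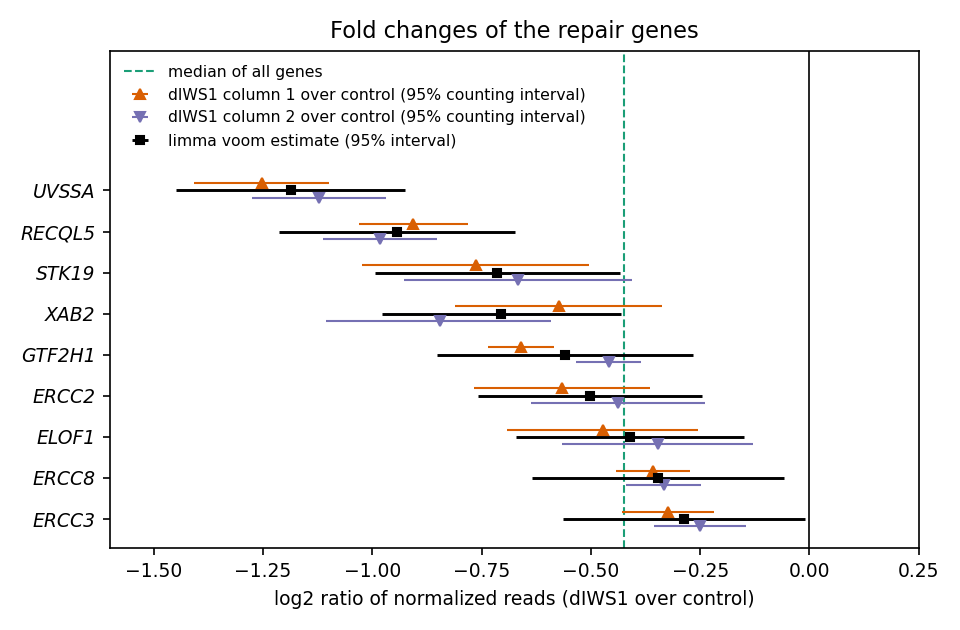
Log2 ratio of normalized reads, dIWS1 over control (horizontal axis), for the 9 repair genes. Triangles give each dIWS1 column over control with its 95% counting interval, which covers counting error only, squares the limma voom estimate with its 95% interval, and the dashed line the median of all genes (-0.43). The voom intervals of *UVSSA* (upper end -0.92), *RECQL5* (-0.67), *STK19* and *XAB2* (both -0.43) end left of the dashed line, those of *STK19* and *XAB2* only just.

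In the order of fold changes, *UVSSA* and *RECQL5* did not overlap in their pairs of column ratios (-1.25 and -1.12 against -0.91 and -0.98). *RECQL5* also lay below both ratios of the next gene, *STK19* (-0.76 and -0.67). From *STK19* through *XAB2*, *GTF2H1*, *ERCC2* and *ELOF1* to *ERCC8*, each neighbouring pair overlapped. Genes further apart in this stretch could be separate, as *XAB2* (-0.57 and -0.85) was from *ELOF1* (-0.47 and -0.35) and *ERCC8*. All genes share the columns, and within each column *GTF2H1*, *ERCC2*, *ELOF1* and *ERCC8* kept this order, with gaps of 0.014 to 0.114. The columns disagreed on the order of *STK19* and *XAB2* and on that of *XAB2* and *GTF2H1*. Differences between neighbours were not tested. *ERCC8* (-0.36 and -0.33) and *ERCC3* (-0.32 and -0.25) were barely apart. The ratio was lower in dIWS1 column 1 than in column 2 for 7 of the 9 genes, the exceptions being *RECQL5* and *XAB2*, and the medians over all genes differed in the same direction (-0.47 and -0.37).

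Per length of gene, the levels in control ran from 81.3 normalized reads per kb for *GTF2H1* to 21.7 for *UVSSA*, while over all genes the quartiles were 19.2 and 76.8 and the median 40.6. *ELOF1* followed *GTF2H1* at 67.1 reads per kb and *ERCC3* came next at 45.5. *RECQL5* (37.7), *XAB2* (37.1), *ERCC8* (33.2) and *STK19* (32.6) stood close together, and *ERCC2* had 24.6. With 1 control column no spread can be set beside these levels. Spans are those of RefSeq on GRCh38.p14, and introns are included because TT-seq reads new RNA, which is spliced only in part. The paper reports more efficient splicing after IWS1 loss, from intron retention in TT-seq. The part of splicing in these levels was not tested.

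In dIWS1 cells *GTF2H1* still had the highest level at 55.3 ± 5.41 reads per kb (SD, 2 columns) and *UVSSA* the lowest at 9.56 ± 0.617. *RECQL5* went from the fourth place in control to the seventh, at 19.6 ± 0.728, under *ERCC8* (26.2 ± 0.327), *XAB2* (22.8 ± 3.04) and *STK19* (19.9 ± 0.940). The columns of *RECQL5* and *STK19* overlapped in dIWS1 cells, as did those of *ELOF1* (50.6 ± 3.12) and *GTF2H1*. *ERCC3* was at 37.3 ± 1.33 and *ERCC2* at 17.4 ± 1.09.

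**Figure D3:**
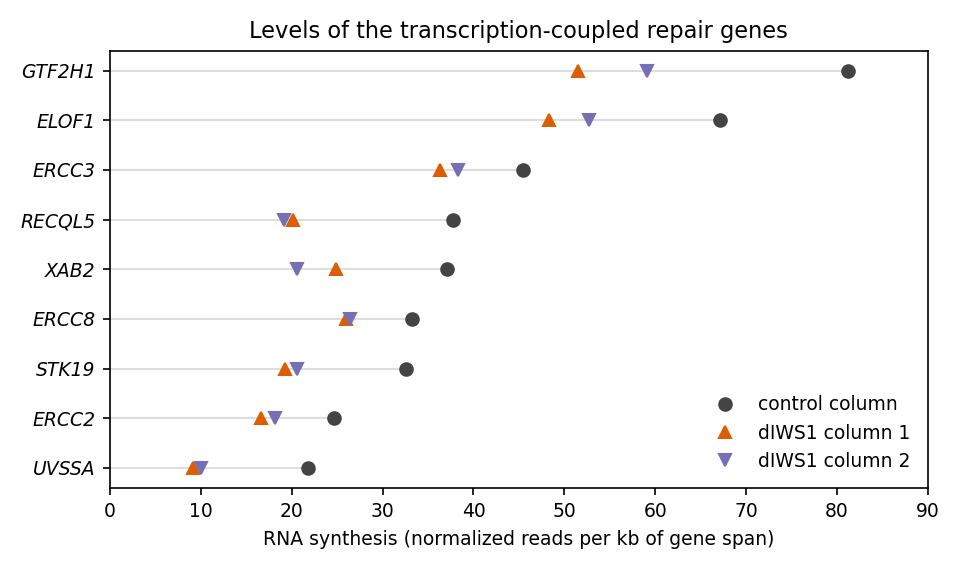
RNA synthesis in normalized reads per kb of gene span (horizontal axis, from 0) for the 9 repair genes in the control column (circles), dIWS1 column 1 and dIWS1 column 2 (triangles). In every gene both dIWS1 columns lie left of the control column, from *UVSSA* (21.7 in control, 9.12 and 9.99 in dIWS1) to *GTF2H1* (81.3 in control, 51.5 and 59.1 in dIWS1).

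Gene length did not order the 9 genes. The 4 genes of the class from 26.5 to 65 kb, whose median over all genes was -0.35, included *UVSSA* and *RECQL5* at the low end and *ERCC3* at the high end, with *GTF2H1* between them. *ELOF1*, the 1 gene shorter than 10 kb, was at -0.41 against a class median of -0.49, and *ERCC8*, the 1 gene over 65 kb, at -0.35 against -0.49. The 3 genes from 10 to 26.5 kb were at -0.71 to -0.50 against -0.39. The share of all genes called lower was 59.2%, 63.9%, 57.4% and 77.7% from the shortest class to the longest.

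The GC content of the gene moved with the fold change over all genes, from a median of -0.31 under 40% GC to -0.57 at 55% and above. The median GC content of the 9 genes was 53.2%, against 44.4% over all genes, though *ERCC8* (37.2%) and *GTF2H1* (40.5%) lay below the latter. *UVSSA* (56.1% GC) was below the 5th percentile of its own class, which was at -1.10, and *XAB2* (60.8%) and *ERCC2* (56.6%) in that class were at -0.70 and -0.50. *RECQL5* (53.2%) was below the lower quartile of genes from 50 to 55% GC (-0.66) but not below their 5th percentile. *STK19* (52.8%) in that class was also below the lower quartile, and *ELOF1* (54.4%) was at -0.41, above the class median of -0.51. The other 3 genes had less GC. *GTF2H1* (40.5%) at -0.56 was below the lower quartile of its class (-0.54), *ERCC8* (37.2%) at -0.35 was just below its class median (-0.31), and *ERCC3* (46.2%) at -0.29 was above its class median (-0.44). The part of GC content in these fold changes was not tested.

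The promoters of the genes at both ends of the order are shown next, so that their letters can be read beside the values. For all 9 genes the 250 bases before each start in the promoter set (RefSeq, GRCh38.p14) were searched on both strands. The letters sought were the GC box (GGGCGG), the CCAAT box (CCAAT), the ETS core (CCGGAAG) and the TATA box (TATAAA). Each line runs 5′ to 3′ on the strand of the gene with the matches in capitals. *UVSSA* (chr4:1346958-1347207, plus strand) and *RECQL5* (chr17:75667155-75667404, minus strand) come first as the 2 genes called lower than the median gene. The *UVSSA* window lies inside the gene's RefSeq span (from 1342011) and its GENCODE span (from 1345691). It precedes a later start, and the bases before these spans were not searched. *ERCC8* (chr5:60945071-60945320, minus strand) and *ERCC3* (chr2:127294145-127294394, minus strand) follow as those whose fold changes were nearest to 0.
UVSSA: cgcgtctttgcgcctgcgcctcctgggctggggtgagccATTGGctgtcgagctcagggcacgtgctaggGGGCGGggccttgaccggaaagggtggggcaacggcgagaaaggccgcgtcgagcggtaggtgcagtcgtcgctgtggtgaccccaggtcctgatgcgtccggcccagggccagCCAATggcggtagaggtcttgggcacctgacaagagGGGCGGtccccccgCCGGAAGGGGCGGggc
RECQL5: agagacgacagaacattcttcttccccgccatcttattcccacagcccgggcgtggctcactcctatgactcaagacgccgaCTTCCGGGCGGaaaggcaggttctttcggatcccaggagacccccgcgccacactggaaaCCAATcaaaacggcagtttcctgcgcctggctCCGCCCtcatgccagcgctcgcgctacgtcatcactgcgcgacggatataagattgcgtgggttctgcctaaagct
ERCC8: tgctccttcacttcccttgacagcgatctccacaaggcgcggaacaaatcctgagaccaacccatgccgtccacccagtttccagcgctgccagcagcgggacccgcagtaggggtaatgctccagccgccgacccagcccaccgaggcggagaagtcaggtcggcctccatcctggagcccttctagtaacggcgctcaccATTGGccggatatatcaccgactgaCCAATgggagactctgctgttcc
ERCC3: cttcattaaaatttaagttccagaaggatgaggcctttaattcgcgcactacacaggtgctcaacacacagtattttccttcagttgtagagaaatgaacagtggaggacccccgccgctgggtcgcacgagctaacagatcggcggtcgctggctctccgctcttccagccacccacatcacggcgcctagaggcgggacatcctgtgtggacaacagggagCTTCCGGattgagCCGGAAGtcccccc

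The *UVSSA* promoter at this later start held 3 GC boxes, 2 CCAAT boxes and 1 ETS core, and the last GC box directly follows the ETS core. The *RECQL5* promoter held 2 GC boxes, of which 1 overlaps its ETS core, and 1 CCAAT box. The *ERCC8* promoter had 2 CCAAT boxes and the *ERCC3* promoter 2 ETS cores, and neither had a GC box in this window. Over the 9 genes (*ELOF1* has 2 starts in the table of promoters and *STK19* has 3), a GC box was found in 5 of 12 promoters, a CCAAT box in 6, an ETS core in 7 and a TATA box in none. Of 11358 promoters of genes in the TT-seq table, 65.0% held a GC box, 33.9% a CCAAT box, 15.7% an ETS core and 5.58% a TATA box. Of all 35116 promoters of this length the shares were 42.6%, 32.0%, 8.52% and 10.7%. A match is a run of letters and says nothing of which factor binds.

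The other genes of nucleotide excision repair give a setting for the 9. Of 70 genes in 8 lists, 64 were tested. Of these 40 (62.5%) were called lower and none higher, beside 64.4% and 0.109% of all genes. By list the share called lower ran from 45.5% (removal of stalled Pol II) to 80.0% (other TFIIH subunits). The counts of single lists that follow are to be set beside the same 64.4%. Their median log2 fold change was -0.38. Relative to the median gene 2 were called lower, among them *ERCC4*, and 2 higher (*CDK7* and *COPS8*). In 1 order over these 64 genes and the 9, *UVSSA* was lowest of 73, *RECQL5* was in position 3, *STK19* in position 7 and *XAB2* in position 9, while *ERCC8* and *ERCC3* were in positions 47 and 53.

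TFIIH has more subunits than the 3 described above, and of the 5 others tested 4 fell, with a median of -0.50. They ran from *GTF2H3*, a core subunit (-0.78), to *CDK7*, the kinase of TFIIH. *CDK7* had 3315 reads in control, 3174 in dIWS1 column 1 and 3430 in dIWS1 column 2 before scaling, a log2 fold change of 0.07 (adjusted p = 0.66) that put it 0.50 above the median gene (adjusted p = 0.0192). Its partner *MNAT1*, which joins the kinase to the core, fell by 0.49 on the log2 scale. A difference between the subunits' fold changes was not tested.

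Damage recognition across the whole genome depends on XPC and its partners and on the DDB proteins, and 3 of the 6 genes in this list fell, with a median of -0.43. *RAD23B*, which encodes a partner of XPC, had the highest value at -0.18, not called. Of the 5 genes tested for verification and incision 3 fell, from *ERCC4*, the XPF nuclease subunit, at -0.89 to *XPA*, the damage verifier, at -0.14, not called. For gap filling and ligation 13 of 18 fell, from *LIG1* (DNA ligase 1) at -0.73 to *POLE4* at -0.14, not called.

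Closer to stalled Pol II, 7 of 12 genes for the CSA ligase, the COP9 signalosome that restrains it and USP7 fell, with a median of -0.37. They ran from *COPS7A* at -0.59 to *COPS8* at -0.03, not called. *USP7*, whose protein UVSSA carries to the complex, fell by 0.37 on the log2 scale (adjusted p = 0.0207), beside -1.19 for *UVSSA* itself. Of 11 genes for ubiquitination and removal of stalled Pol II 5 fell, with a median of -0.29, from *NEDD4* at -0.63 to *ARMC5* at -0.14, not called. Of 4 partners of XAB2 3 fell, from *AQR*, a helicase, at -0.54 to *ZNF830* at -0.16, not called. Of 3 further factors 2 fell, from *EP300*, an acetyltransferase, at -0.50 to *TCEA1*, which encodes the rescue factor TFIIS, at -0.28, not called.

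**Figure D4:**
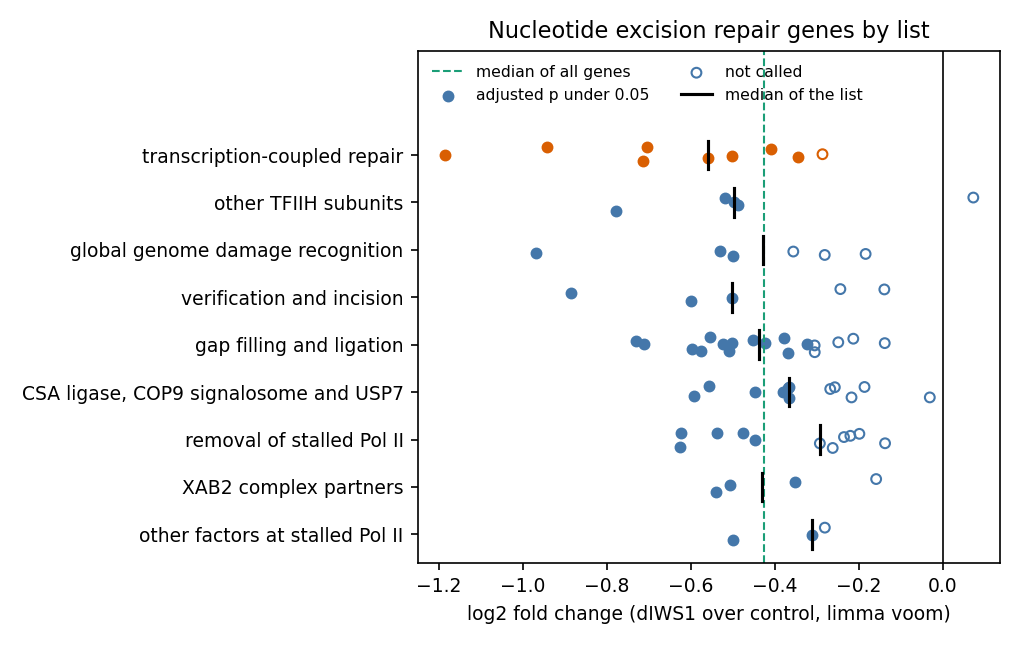
Log2 fold change, dIWS1 over control (horizontal axis), of the 9 repair genes (orange, top) and of 64 other excision repair genes in 8 lists (blue), 1 point a gene. Filled points have an adjusted p under 0.05, vertical bars are list medians, the dashed line is the median of all genes (-0.43) and the vertical scatter carries no value. *UVSSA* at -1.19 is the leftmost point and *CDK7* at 0.07 the rightmost.

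Among 6747 other genes with at least 500 reads in control, those nearest to *UVSSA* in their pair of column ratios were *BANP* (-1.25 and -1.11, distance 0.013), *JPH1* (-1.23 and -1.11, distance 0.027) and *LOC81691* (-1.29 and -1.15, distance 0.048). The distance is the straight line between the pairs of log2 ratios over 2 columns. *BANP* encodes a promoter-binding protein and *JPH1* a junctional membrane protein.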

How the data were processed

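TT-seq libraries of K562 cells with dTAG-IWS1 (2 control, 2 dIWS1, described as biological replicates) were compared. Per the labels and methods, the authors aligned paired reads with STAR 2.6.0 to GRCh38 with spike-ins, counted read pairs per RefSeq gene by strand, kept expressed genes and fitted DESeq2 with spike-in size factors. The deposited table gives a signal per gene, namely counts divided by a size factor and then averaged over 4 library columns. It also holds the authors' log2 fold changes, standard errors, test statistics and p-values for dIWS1 over control. The last 4 columns of that comparison were not used. The deposited log2 fold change served only to learn which recovered columns belong to which group, and no value of it is given.

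Each mean was then split into whole reads, given 3 steps (1 per distinct column). Of 10147 genes 10118 had 1 solution, 11 had a mean of 0, 16 had means over 40000 and were not searched, and 2 had several solutions. The recovery and the fit were tested on simulated data. The simulated recovery left out genes with the highest means, *GTF2H1* (mean 3036) among them. The control column was counted once, since the same column entered 2 times is not 2 samples. limma 3.58.1 (voom, R 4.3.3) was fitted over all 10118 genes with 1 residual degree of freedom, pooled across genes. The planned design foresaw this case. Intervals on reads cover counting error only.

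Names were matched to RefSeq (GRCh38.p14; 9351 by symbol, 576 by synonym, 169 by gene number, 51 unmatched). The RefSeq release of the authors was not given in the sources used here. *STK19* is listed in RefSeq under a newer symbol, and *UFD1* and the elongin genes have older names in the table. Named genes were the 9 genes, the lowest and highest gene of each list with a mean of at least 100, and the 3 genes nearest to the lowest of the 9. A gene that this rule takes from 1 list is not reported here. *MNAT1* and *USP7* were named after their values were seen. The genes and lists were chosen with earlier results of these data known. Alternatives were other scalings, control weights, minimum means, tests, thresholds, minimum changes and leaving out each dIWS1 column. Scripts ran in Python 3.11.15 (numba 0.67.0, pandas 2.3.3, numpy 2.4.6, matplotlib 3.10.9, scipy 1.17.1).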

Additional observations from a re-analysis of the deposited data

How the results depend on the processing

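The fall of *UVSSA* and *RECQL5* was called under every alternative fitted, relative to the median gene included. The counts over the other genes turned on the scaling. With reads scaled to the total in genes, 2 of the 9 repair genes were called lower, and 1131 of all genes were lower and 1512 higher, against 6511 and 11. Recentring on the median gene likewise left 2 of the 9, with 484 genes lower and 303 higher, and a spike-in scaling moved up by 0.2 left 4 of the 9, with 2728 lower and 54 higher (moved down by 0.2, 4 higher). *ERCC8*, *ELOF1* and *ERCC3* changed sign under recentring (0.0795, 0.0146 and 0.139) and under total reads (0.0943, 0.0308 and 0.153), as the scaling itself sets.

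With the control column entered 2 times, 60 genes were higher. Under limma-trend with pseudocounts of 0.5 and 1, 26 and 23 were higher. An adjusted p under 0.01 or 0.1 gave 6 or 23 higher, and a minimum change of 0.5 gave 3744 lower and 4 higher. Relative to the median gene, entering the control 2 times gave 1584 lower and 1131 higher, limma-trend 307 and 105 or 296 and 102, an adjusted p under 0.01 gave 258 and 102, one under 0.1 gave 478 higher, and a minimum change of 0.5 gave 107 higher. *ERCC3* was called when the control was entered 2 times (adjusted p = 0.00668), with the scaling moved down by 0.2, and at an adjusted p under 0.1. In each of these settings 9 of the 9 were called lower. *STK19* relative to the median gene was also called with the control entered 2 times (adjusted p = 0.03, 3 of the 9 lower). Over the alternatives this adjusted p of *STK19* ran from 0.03 to 0.445. The adjusted p of *ERCC3* ran from 8.78e-04 to 0.688. Where no scaling is named, the cause was not tested.

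Leaving out either dIWS1 column left 1 against 1 column, a value with no test, and every repair gene kept its sign against control. Relative to the median gene, *XAB2* was at -0.098 or -0.474 and *ERCC8* at 0.116 or 0.0389 without column 2 or column 1. No paired analysis was possible because the recovered columns carry no replicate number and there is 1 control column. With 190 to 3649 reads per gene and column, standard errors were 0.13 to 0.15, and a shift of -0.29 relative to the median gene (*STK19*) was not called.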
